A study of Homo sapiens with 4 samples.

Results

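Cadherins and protocadherins were followed in RNA-seq of IMR-90, a line of fibroblasts from human fetal lung, grown to confluence with and without RB1. The members are the protein-coding genes of the count table named CDH and a number, or with a name that starts with PCDH. The rule found 86 genes among the 57820 gene IDs of the table: 23 cadherins, 15 PCDHA, 15 PCDHB and 21 PCDHG genes of the clustered protocadherins, and 12 protocadherins outside the clusters. PCDH20, PCDHB16 and PCDHGB5 could not be paired with an ID and were not analysed here. The rule uses no expression value.

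The RB1 KO cells were IMR-90 cells transduced with lentivirus carrying Cas9 and a guide against the translation start of RB1, and then kept as a pool of puromycin-resistant cells rather than as a clone. The wild-type cells were unedited IMR-90, and no transduced and selected control is described, so loss of RB1 and the effects of transduction, Cas9 and selection cannot be told apart. Both genotypes were grown in high-glucose DMEM with fetal bovine serum and antibiotics, and 2 libraries of each were sequenced. Separate cultures are not stated for the 2 libraries of a genotype, and the p-values reflect only how much these libraries vary, and that variation may be technical. Gene counts ranged from 30873239 to 34247292 per library. RB1 itself had 85.3 and 79.0 CPM (counts scaled to library size) in RB1 KO and 76.5 and 75.2 CPM in wild-type. This does not check the labels, because small indels at a translation start can leave the amount of transcript as it was. The authors report that a Western blot for the RB1 protein showed its disruption.

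Cadherins are membrane proteins that bind calcium and join cells through their extracellular repeats. Classical cadherins of types I and II pair with the same kind of cadherin on a neighbouring cell. They are anchored to actin through beta-catenin and alpha-catenin, and p120-catenin holds them at the membrane. Mesenchymal cells such as fibroblasts typically use CDH2 (N-cadherin) and CDH11 (OB-cadherin), epithelial cells CDH1 (E-cadherin) and endothelial cells CDH5 (VE-cadherin). Clustered protocadherins lie in 3 neighbouring gene clusters, alpha, beta and gamma. In the alpha and gamma clusters each gene has a variable first exon with its own promoter, spliced to constant exons that the whole cluster shares, whereas the beta genes are single exons without a constant part. Neurons choose among these promoters and use the resulting proteins as a surface identity. The delta-protocadherins outside the clusters, such as PCDH9 (delta-1) and PCDH10 (delta-2), do not bind catenins as classical cadherins do and are known mostly from the nervous system.

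Most promoters of the clustered protocadherins carry a conserved element around the letters CGCT, which CTCF, a DNA-binding protein that shapes chromatin loops, is known to bind. Because the values in these libraries differed by cluster, the element is shown for 4 beta genes from the later part of their cluster, where PCDHB13 lies, for 3 gamma genes taken from the start, the middle and the later part of their cluster, and for 1 alpha gene. The sequences are RefSeq promoter sequences on the plus strand of chromosome 5 (build GRCh38.p14), 5′ to 3′, and capitals mark the letters searched for.
PCDHB10: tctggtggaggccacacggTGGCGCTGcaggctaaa
PCDHB12: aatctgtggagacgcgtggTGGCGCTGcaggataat
PCDHB13: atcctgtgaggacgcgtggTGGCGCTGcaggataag
PCDHB15: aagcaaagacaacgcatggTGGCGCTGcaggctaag
PCDHGA3: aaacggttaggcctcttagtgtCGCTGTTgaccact
PCDHGA7: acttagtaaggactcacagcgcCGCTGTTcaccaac
PCDHGA10: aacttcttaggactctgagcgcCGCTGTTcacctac
PCDHA2: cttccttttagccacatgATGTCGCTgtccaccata
The PCDHB13 stretch lies at chr5:141213859-141213894, with its capitals beginning 41 bases before the annotated start of the gene. The PCDHGA7 stretch lies at chr5:141382643-141382678, and its capitals begin 77 bases before the start.

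Promoters of 68 of the 86 members were in the RefSeq table, each with 250 bases before and 50 after the start, and both strands were searched. The letters TGGCGCTG were in 11 of 13 PCDHB promoters (84.6%), against 2.32% of all 27305 promoters in the table. CGCTGTT was in 12 of 19 PCDHG promoters (63.2%), against 2.73% of all promoters. The shorter CGCTG, which both of these motifs contain, was in all 19 PCDHG promoters and in 51.7% of all promoters. It was also in 84.6% of the PCDHB, 69.2% of the PCDHA and 75% of the cadherin promoters. Of the promoters of protocadherins outside the clusters, 81.8% held it. ATGTCGCT was in 9 of 13 PCDHA promoters (69.2%), against 0.282% of all promoters. The E2F family carries RB1 to promoters, and the E2F letters TTTCCCGC, TTTCGCGC, TTTGCCGC and TTTGGCGC were searched together. They were in 1 of the 68 member promoters, PCDHA9, and in 3.99% of all promoters. These motifs were chosen with the sequences in view, except for those of E2F, and a match is not a measured binding site.

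Of the 86 members, 14 had no count in any library and 72 had at least 1. The filter on low counts left 49 members in the test. Of these, 2 were higher in RB1 KO, 2 were lower and 45 did not pass, at an adjusted p below 0.1 (quasi-likelihood test of edgeR, adjusted by Benjamini-Hochberg over all 16426 genes tested). Over all genes tested, 2.9% passed, 1.99% as higher and 0.907% as lower in RB1 KO. The members that passed were the protocadherins PCDH10 and PCDH9, which fell, and PCDHB13 and PCDHGA7, which rose. No cadherin passed.

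To describe groups without the test's filter, the 46 members with a mean of at least 10 counts per library were used. A gene's groups are called separate where both RB1 KO libraries lay on the same side of both wild-type libraries. Over the 16175 genes of the table that reach this mean, 22.7% had both RB1 KO libraries above both wild-type libraries and 24% had both below. With 2 libraries against 2, an exact two-sided permutation test of a single value cannot give a p below 0.333.

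PCDH10, a delta-2 protocadherin with homophilic adhesion, showed the lowest adjusted p of all members. The RB1 KO libraries held 76 and 81 counts of it, the wild-type libraries 261 and 252. In CPM this was 2.31 and 2.43 in RB1 KO and 7.84 and 7.92 in wild-type. Both RB1 KO libraries were low, both wild-type libraries were high, and the difference between genotypes far exceeded that within either. Its level fell 3.32-fold (log2 fold change −1.73, standard error 0.159, adjusted p = 0.00665 by edgeR). PCDH10 spans chr4:134070449-134129761 on GRCh37.

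PCDH9, a delta-1 protocadherin that is among the longest genes of the family, also fell. It had 7.85 and 8.50 CPM in RB1 KO and 14.3 and 12.1 CPM in wild-type. The groups did not overlap, although the 2 wild-type libraries differed from each other by more than the 2 RB1 KO libraries did. On the log2 scale it fell by 0.69 (standard error 0.132, adjusted p = 0.0558 by edgeR). Without wild-type replicate 1 the log2 fold change was −0.55, and with a block for the replicate number the adjusted p was 0.124 by edgeR. Exons of the antisense gene PCDH9-AS1 overlap a small part of those of PCDH9, with 30800 of 30944 exon bases free of other genes. A few reads of the pair may not be separated.

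PCDH18, another delta-2 protocadherin, was the most abundant member. Per kilobase of exon it reached 93.8 CPM in wild-type and 125.6 CPM in RB1 KO. Its level in CPM was 911 and 768 in RB1 KO and 590 and 664 in wild-type, so both RB1 KO libraries were higher. The log2 fold change of 0.42 (standard error 0.107) did not pass (adjusted p = 0.12 by edgeR). It passed with DESeq2 (0.43, adjusted p = 0.00544), but not with a block for the replicate number (0.42, adjusted p = 0.298 by edgeR). The value depended on the libraries kept. It was 0.54 when RB1 KO was represented by replicate 1 alone and 0.30 when by replicate 2 alone. For wild-type the same choice gave 0.51 with replicate 1 alone and 0.35 with replicate 2 alone. With ERCC scaling the log2 fold change of PCDH18 was −0.07, against −0.49 for the median of all genes. PCDH7, a delta-1 protocadherin at 109 and 105 CPM in RB1 KO and 114 and 104 CPM in wild-type, had a log2 fold change of −0.03 (95% interval from −0.17 to 0.12). The highly expressed protocadherins outside the clusters thus had positive or near-zero values, and the 2 that fell were among the lower ones. The remaining protocadherins outside the clusters were at or near 0. PCDH17 had 0 counts in both RB1 KO libraries and 3 and 2 counts in wild-type, and PCDH1 had 1 and 16 counts in RB1 KO and 3 and 4 in wild-type, with the highest and the lowest value in the same genotype.

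**Figure D1:**
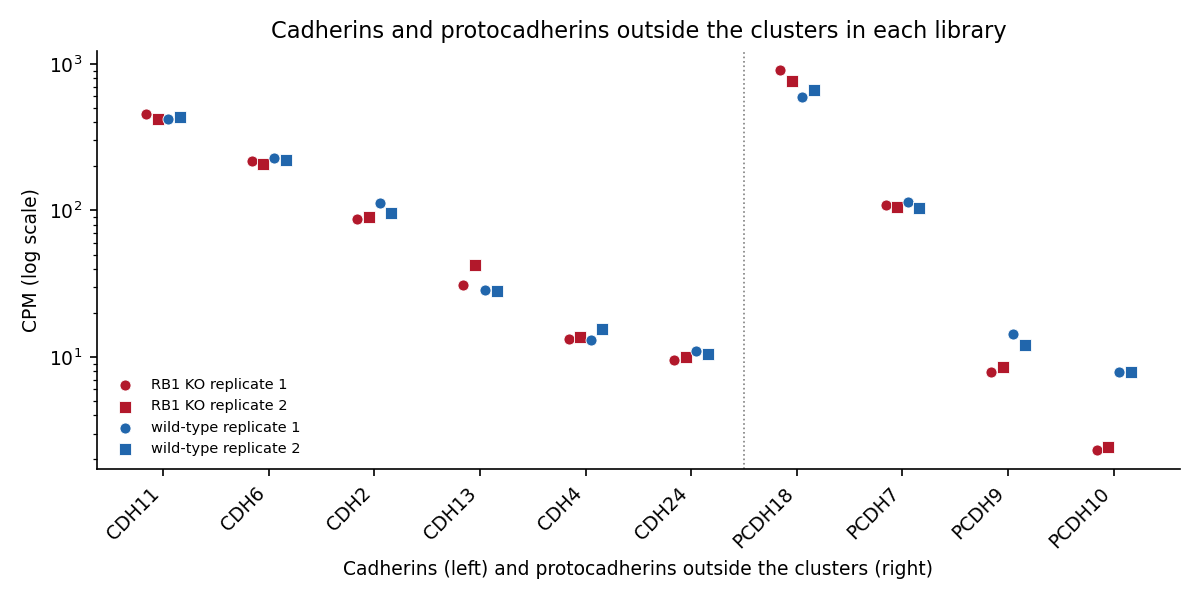
CPM of each library on a log axis for the 6 cadherins (left of the dotted line) and 4 protocadherins outside the clusters (right) with a mean of at least 10 counts, with RB1 KO in red, wild-type in blue, circles for replicate 1 and squares for replicate 2. The cadherin points lie close together, while PCDH10 at 2.31 and 2.43 CPM in RB1 KO lies below 7.84 and 7.92 CPM in wild-type.

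Summed over the family, the cadherins were expressed at much the same level in both genotypes. CDH11, CDH6 and CDH2 supplied 93.4% and 91.5% of all cadherin counts in RB1 KO and 93.3% and 93.2% in wild-type. The summed cadherin level was 812 and 783 CPM in RB1 KO and 810 and 802 CPM in wild-type. Of the 23 cadherins, 9 had no counts and 8 were tested, none of which passed edgeR's test. An unadjusted p below 0.05 was reached by 1 cadherin that was higher and 2 that were lower. Over all genes tested the shares at that unadjusted p were 8.16% higher and 7.16% lower. The median log2 fold change of the 6 cadherins that averaged at least 10 counts was −0.08, against −0.01 over all such genes. Of these 6, 3 had both RB1 KO libraries below both wild-type libraries, against 24% of all genes at that mean count. In 1 both lay above, against 22.7%. Without RB1 KO replicate 1 the median of the 6 was −0.07. All 6 were negative when ERCC spike-in counts set the scale, against 4 of 6 in the main fit.

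CDH11, the cadherin first described in osteoblasts and widespread in mesenchyme, had 454 and 419 CPM in RB1 KO and 418 and 430 CPM in wild-type. The libraries overlapped, and the log2 fold change was 0.04 (95% interval from −0.11 to 0.19). CDH6, a type II cadherin also known from kidney, had 216 and 207 CPM in RB1 KO and 226 and 220 CPM in wild-type (log2 fold change −0.08, 95% interval from −0.21 to 0.06). CDH2 had 87.7 and 90.8 CPM in RB1 KO and 112 and 96.1 CPM in wild-type. Both RB1 KO libraries were lower, by less than the 2 wild-type libraries differed, and the log2 fold change of −0.22 (standard error 0.0852) did not pass (adjusted p = 0.276 by edgeR) and was −0.10 without wild-type replicate 1.

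CDH13 (T-cadherin), which is held in the membrane by a lipid anchor and lacks the part that binds catenins, had 30.9 and 42.5 CPM in RB1 KO and 28.8 and 28.1 CPM in wild-type. The difference rested mostly on RB1 KO replicate 2. The value was 0.37 on the log2 scale (standard error 0.141, adjusted p = 0.269 by edgeR), turned to −0.11 with ERCC scaling, and was 0.58 without RB1 KO replicate 1 (adjusted p = 0.000127). An antisense gene, CDH13-AS2, overlaps its exons. CDH4 (R-cadherin) and CDH24 had values of −0.09 and −0.13, and neither passed.

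CDH1, CDH3 (P-cadherin) and CDH5 had 0 counts in all 4 libraries, which allows a level of up to 0.0943 CPM (3 counts in a library). CDH15 (M-cadherin), known from muscle, had 7 and 9 counts in RB1 KO and 11 and 10 in wild-type (log2 fold change −0.41, not passed). CDH9, CDH10, CDH12 and CDH18 are type II cadherins on the short arm of chromosome 5. Together they had 4 and 1 counts in RB1 KO and 17 and 15 in wild-type. These genes, better known from the brain, were thus close to 0 in both genotypes, with more counts in wild-type. CDH6, a type II cadherin on the same arm, is not in this set. It was abundant in both genotypes, at 216 and 207 CPM in RB1 KO and 226 and 220 CPM in wild-type. CDH18 alone had 2 and 0 counts in RB1 KO and 10 and 10 in wild-type, and did not pass (adjusted p = 0.133 by edgeR). This set was put together after its values were seen.

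In the beta cluster nearly all genes lay on the same side. All 13 PCDHB genes that averaged at least 10 counts had a positive log2 fold change (11 of 13 with ERCC scaling), from 0.35 to 1.58 with a median of 0.78. In 12 of the 13 (92.3%) both RB1 KO libraries lay above both wild-type libraries, against 22.7% of all genes at that mean count and 17.7% of the genes tested at 1 to 6 CPM, whose median was −0.05. The exception was PCDHB3, which had 1.28 and 0.841 CPM in RB1 KO and 0.661 and 1.01 CPM in wild-type. The beta genes are neighbours with similar sequences and the same libraries, so they are not 13 independent observations. The test called 1 of the 13 higher, against 1.99% of all genes tested. With an unadjusted edgeR p under 0.05, 10 of the 13 were higher, against 8.16% of all genes tested. With ERCC scaling, all 13 lay above the median of all genes.

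Summed over the 15 beta genes, the level was 38.3 and 33.5 CPM in RB1 KO and 19.8 and 22.4 CPM in wild-type. Both RB1 KO libraries were higher. The means were 35.9 ± 3.37 CPM (SD, n = 2) in RB1 KO and 21.1 ± 1.84 CPM (SD, n = 2) in wild-type, and their ratio was 1.70. The ratio of single libraries ranged from 1.50 to 1.94. With ERCC scaling the libraries overlapped, at 33.8 and 28.8 CPM in RB1 KO and 19.9 and 31.9 CPM in wild-type, with a ratio of means of 1.21 and of single libraries from 0.903 to 1.70. As a share of all counts in the 3 clusters, which does not depend on scaling between libraries, the beta genes made up 12.3% (95% Wilson interval 11.7 to 12.99%) and 11.1% (10.5 to 11.8%) in RB1 KO. In wild-type they made up 7.13% (6.62 to 7.67%) and 7.45% (6.94 to 7.99%). These intervals cover counting error only.

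PCDHB13 was the beta gene that passed. It had 138 and 165 counts in RB1 KO and 69 and 76 counts in wild-type, or 4.20 and 4.96 CPM against 2.07 and 2.39 CPM. Both RB1 KO libraries were well above either wild-type library, with a 2.05-fold rise (log2 fold change 1.04, standard error 0.197, adjusted p = 0.0538 by edgeR). It did not pass without wild-type replicate 1 (0.95, adjusted p = 0.158) or with ERCC scaling (0.55, adjusted p = 0.340). The gene is a single exon at chr5:140593491-140598551 on GRCh37.

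Other beta genes had positive values from smaller to larger than that of PCDHB13 and did not pass. PCDHB9 had 2.22 and 1.77 CPM in RB1 KO and 0.811 and 1.04 CPM in wild-type (log2 fold change 1.11, standard error 0.28, adjusted p = 0.118 by edgeR). PCDHB12 had 2.25 and 1.47 CPM in RB1 KO and 0.691 and 0.849 CPM in wild-type (1.27, standard error 0.322, adjusted p = 0.119). In both genes RB1 KO replicate 1 was the highest library. PCDHB10, with 4.05 and 3.73 CPM in RB1 KO and 2.37 and 2.14 CPM in wild-type, had a value of 0.78 (standard error 0.192, adjusted p = 0.11). PCDHB14, the most abundant beta gene, had 5.33 and 6.01 CPM in RB1 KO and 3.46 and 4.15 CPM in wild-type (0.58, standard error 0.175, adjusted p = 0.176). The largest value was that of PCDHB8 (1.58), which rested on 34 and 18 counts in RB1 KO and 12 and 5 in wild-type. RB1 KO replicate 1 was above RB1 KO replicate 2 in 10 of the 13 genes. The median log2 fold change of the 13 was 0.85 without RB1 KO replicate 2 and 0.66 without RB1 KO replicate 1. Because only reads with 1 mapping place were counted, reads from stretches that beta genes share are missing, and the split of the counts between close paralogs is uncertain. Exons of antisense genes overlap PCDHB2 (2301 of 4097 exon bases free of other genes), PCDHB3 (2962 of 3355) and PCDHB5 (2909 of 3410). They overlap PCDHB6, PCDHB7, PCDHB10 and PCDHB11 over fewer bases, and PCDHB8, PCDHB9 and PCDHB12 to PCDHB15 not at all. The part of antisense reads in the beta values was not tested.

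**Figure D2:**
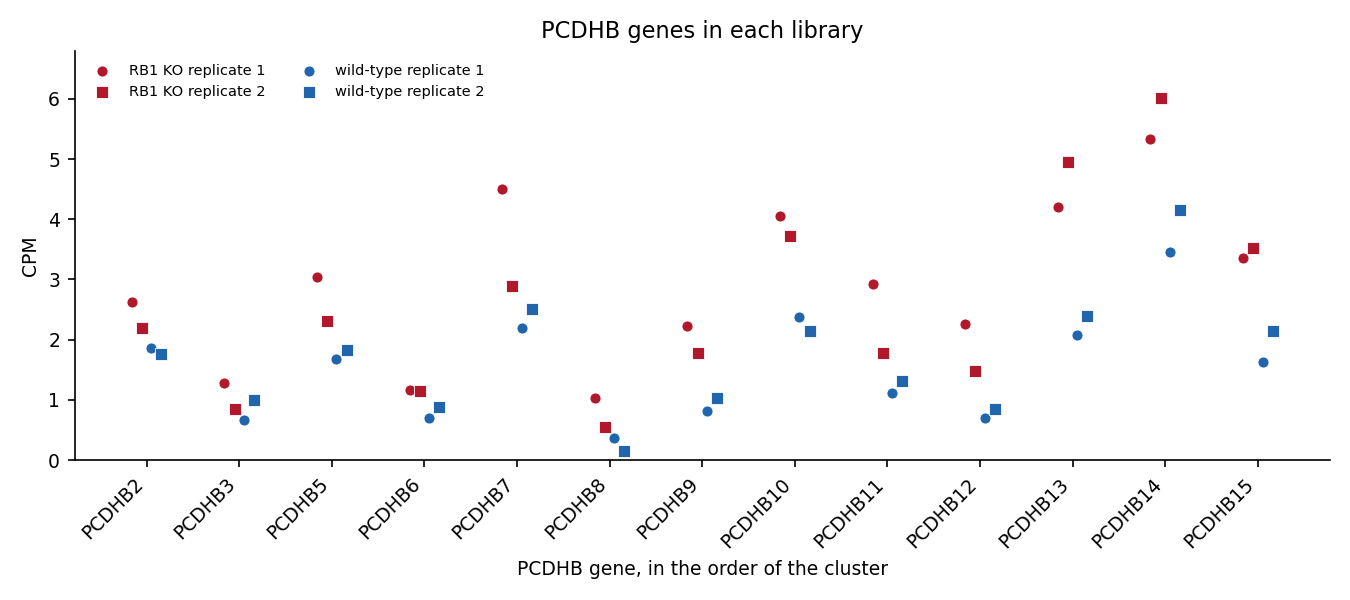
CPM of each library for the 13 PCDHB genes that averaged at least 10 counts, in the order of the cluster, with RB1 KO in red, wild-type in blue, circles for replicate 1 and squares for replicate 2. Both red points lie above both blue points in 12 of the 13 genes, PCDHB3 being the exception.

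The sum of the gamma cluster was nearly equal in both genotypes. Its 21 genes together had 267 ± 2.80 CPM (SD, n = 2) in RB1 KO and 266 ± 14.4 CPM (SD, n = 2) in wild-type, a ratio of 1.00 (0.714 with ERCC scaling). Within the cluster the values followed the order of the genes. The first 11 genes, PCDHGA1 to PCDHGB4, were all positive, from 0.04 to 0.62 with a median of 0.37, although with ERCC scaling only 1 of the 21 gamma genes was positive and 13 lay above the median of all genes. In 10 of the 11 both RB1 KO libraries were above both wild-type libraries, against 22.7% of all genes at that mean count. The exception was PCDHGA6 at 0.04. Of the last 10 genes, PCDHGA8 to PCDHGC5, 8 were negative and 2 positive, from −0.62 to 0.13 with a median of −0.23. In 6 of these 10 both RB1 KO libraries were below both wild-type libraries, against 24% of all genes at that mean count, and in none were both above. The point of division was chosen after the values were seen.

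Across the 21 genes, the log2 fold change had a Spearman correlation of −0.88 with the position of the gene's start. These genes share the same 4 libraries, so this describes the libraries and has no p. Between each RB1 KO and each wild-type library the correlation ranged from −0.91 to −0.75. Between the libraries of the same genotype it was −0.40 for RB1 KO and 0.19 for wild-type. It was −0.83 without the 3 PCDHGC genes and −0.11 when the mean level replaced the position. The A-type genes alone gave −0.83 over 12 genes and the B-type genes −0.77 over 6, so both kinds of gene, which are interspersed along the cluster, followed the order.

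The shares of the gamma counts do not depend on scaling between libraries. Since the genes were divided after their values were seen, these shares describe the same data and are no separate evidence, and their intervals cover counting error only. The first 11 genes supplied 35.7% (95% Wilson interval 34.7 to 36.7%) and 35.4% (34.4 to 36.4%) of the gamma counts in RB1 KO. In wild-type they supplied 28.7% (27.7 to 29.7%) and 28.7% (27.8 to 29.7%). The 2 libraries of a genotype had close shares. Reads of unspliced RNA from an early gene that fall on the exon of a later one are counted for the later one. Reads outside annotated exons made up 12.96% and 13.1% of the reads in RB1 KO and 13.4% and 15.6% in wild-type. Their part in the shares was not tested.

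**Figure D3:**
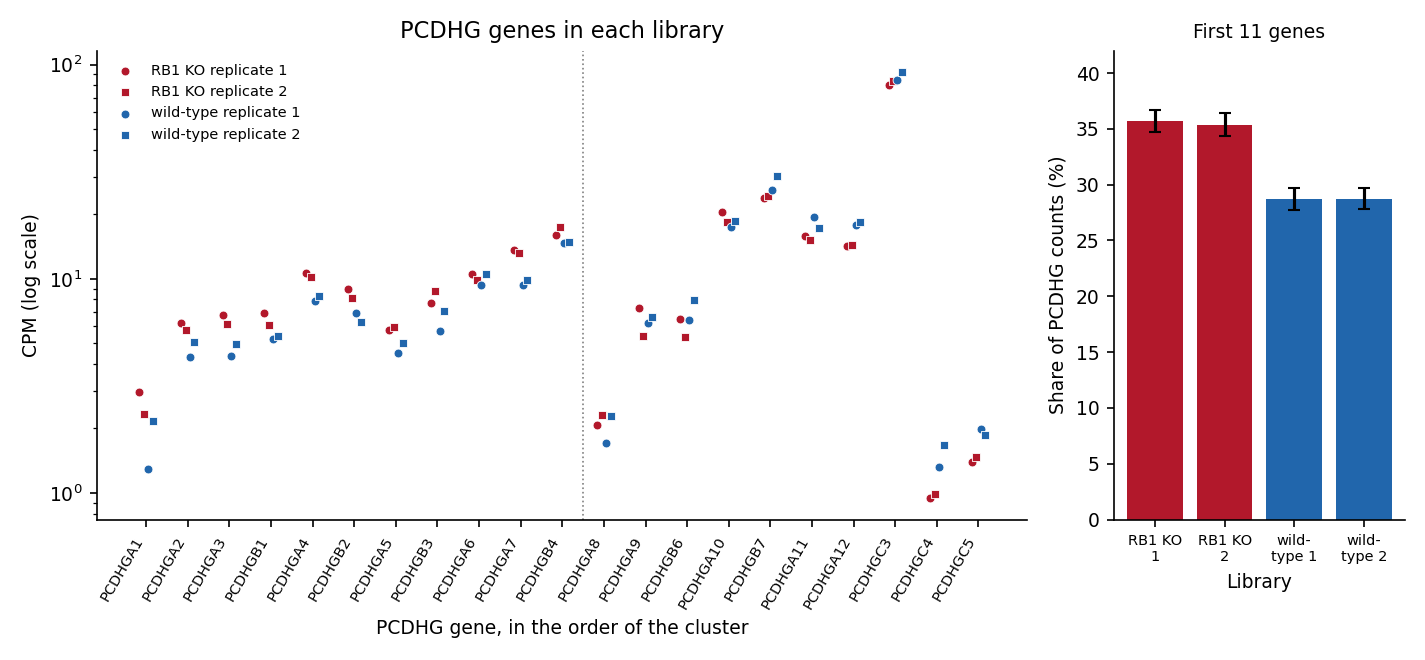
Left, CPM of each library on a log axis for the 21 PCDHG genes in the order of the cluster, with the dotted line between the first 11 and the last 10 genes, RB1 KO in red, wild-type in blue, circles for replicate 1 and squares for replicate 2. Right, share of the PCDHG counts from the first 11 genes in each library, with 95% Wilson intervals. Red points lie higher on the left of the line and blue points mostly on its right, and the bars stand at 35.7%, 35.4%, 28.7% and 28.7%.

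PCDHGA7 was the gamma gene that passed. It had 448 and 438 counts in RB1 KO and 311 and 314 counts in wild-type, or 13.6 and 13.2 CPM against 9.34 and 9.87 CPM. The replicates were close and the genotypes separate (log2 fold change 0.48, standard error 0.112, adjusted p = 0.0975 by edgeR). The call is at the edge of the threshold. Among the other fits, the adjusted p was below 0.1 only with RLE factors, with a block that crosses the replicate numbers and without RB1 KO replicate 2. PCDHGA1, the first gene of the cluster, had the largest positive value among the gamma genes (0.62, standard error 0.292, adjusted p = 0.368), with 2.95 and 2.34 CPM in RB1 KO and 1.29 and 2.17 CPM in wild-type. Its value was 0.30 without wild-type replicate 1 and 1.03 without wild-type replicate 2.

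PCDHGC3, a C-type gene that unlike the others is broadly used outside neurons, was the most abundant gamma gene. It had 80.5 and 83.6 CPM in RB1 KO and 84.5 and 92.4 CPM in wild-type. Its log2 fold change was −0.11 (95% interval from −0.25 to 0.04, adjusted p = 0.546 by edgeR). PCDHGB7, next in level, had 23.8 and 24.3 CPM in RB1 KO and 25.8 and 30.1 CPM in wild-type (−0.22, standard error 0.1, adjusted p = 0.355). PCDHGA10, in the later part of the cluster, overlapped between genotypes with 20.6 and 18.4 CPM in RB1 KO and 17.4 and 18.6 CPM in wild-type (0.11, adjusted p = 0.665). PCDHGA12, the last A-type gene, had 14.2 and 14.4 CPM in RB1 KO and 17.9 and 18.4 CPM in wild-type (−0.35, standard error 0.0971, adjusted p = 0.145), and was called lower when library totals alone set the scale. PCDHGC4 had 0.944 and 0.991 CPM in RB1 KO and 1.32 and 1.67 CPM in wild-type, with the lowest value in the cluster (−0.62, standard error 0.28, adjusted p = 0.343).

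**Figure D4:**
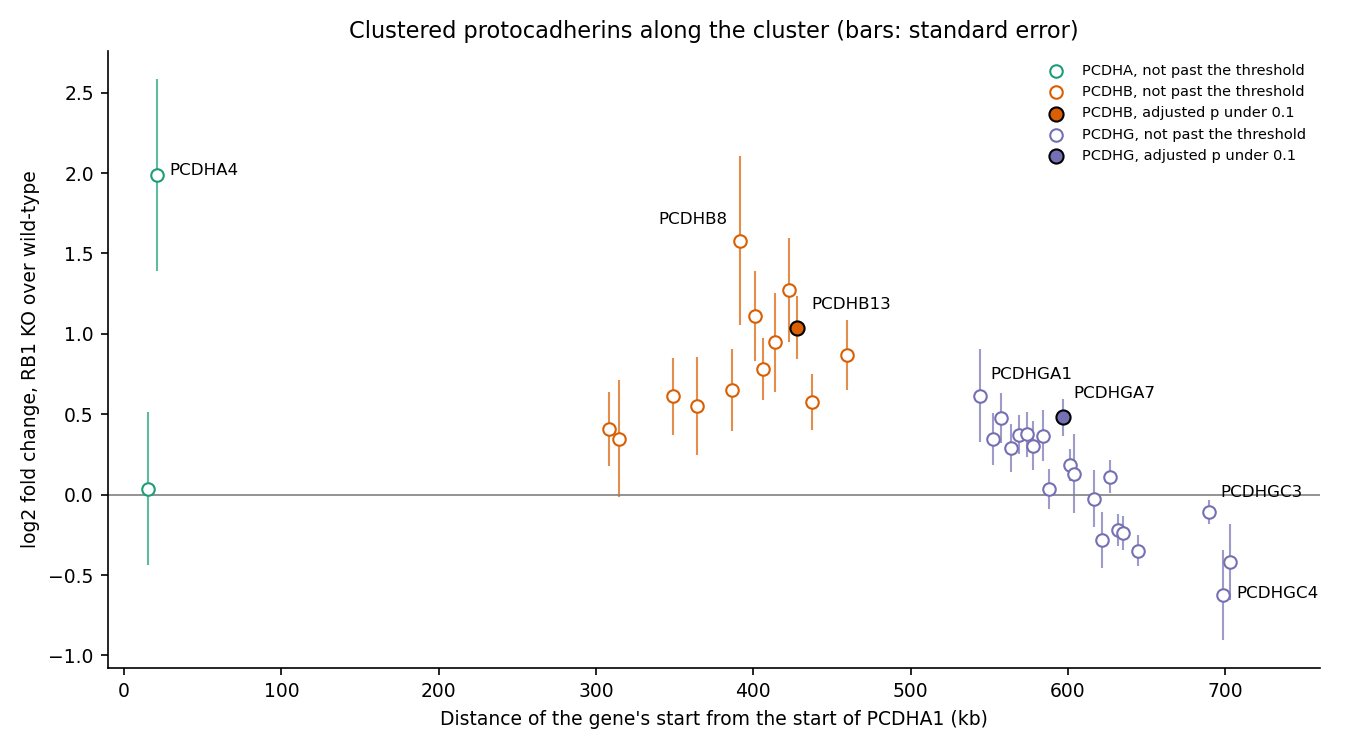
Log2 fold change of RB1 KO over wild-type with its standard error against the distance of the gene's start from the start of PCDHA1 in kb, for the clustered protocadherins with a mean of at least 10 counts, coloured by cluster, filled where the adjusted p was under 0.1. The 13 PCDHB genes all lie above 0 (11 of 13 with ERCC scaling), and the PCDHG genes pass from positive values at the start of their cluster to negative values at its end, with PCDHGC4 at −0.62 (with ERCC scaling 1 of the 21 was positive).

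The alpha cluster was close to silent. Of its 15 genes, 1 had no counts, 3 were tested and none passed, and no gene had more than 22 counts in any library. Summed over the cluster there were 88 and 60 counts in RB1 KO and 41 and 48 counts in wild-type, a ratio of 1.64 in CPM (1.16 with ERCC scaling). PCDHA4 had 22 and 11 counts in RB1 KO and 3 and 5 counts in wild-type (log2 fold change 1.99, standard error 0.598, adjusted p = 0.174 by edgeR). PCDHA2 had 14 and 11 counts in RB1 KO and 6 and 5 counts in wild-type (1.14, adjusted p = 0.32). PCDHA3 overlapped, with 11 and 12 counts in RB1 KO and 8 and 14 counts in wild-type (0.04, adjusted p = 0.983). Both RB1 KO libraries were higher in sum, and at this depth the difference of single alpha genes could not be resolved.

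The median log2 fold change was 0.78 for PCDHB, 0.13 for PCDHG and −0.36 for the 4 protocadherins outside the clusters with enough counts. None of the tested genes within 500 kb of the clusters passed, against 2.9% of all genes tested. For so few genes this does not show that they were unchanged. Their values ranged from −0.39 (ANKHD1, overlapping) to 1.78 (CD14, with 11 and 14 counts in RB1 KO and 3 and 4 in wild-type). ARAP3, after the gamma cluster, had −0.33, with both RB1 KO libraries below both wild-type libraries. TAF7, which lies between the beta and gamma clusters and encodes a part of the general transcription factor TFIID, had a value of 0.13. DIAPH1, the gene after the gamma cluster, had −0.18 and ZMAT2, before the alpha cluster, had −0.17. In both, as in PFDN1, IK, HARS1, HARS2 and GNPDA1, both RB1 KO libraries lay below both wild-type libraries. In TAF7, CD14, DND1, FCHSD1 and RNF14 both lay above.

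Levels between genes were compared per kilobase of exon that no other gene on the same strand shares. In wild-type the order began with PCDH18 at 93.8 CPM per kb, CDH11 at 32.6, PCDHGC3 at 27.2, CDH6 at 19.7, CDH2 at 12.1, PCDHGB7 at 10.04 and PCDH7 at 8.45 CPM per kb. The beta genes ranged from 0.102 to 0.895 CPM per kb and the gamma genes from 0.419 to 27.2 CPM per kb. PCDH10 had 0.774 CPM per kb, a level like that of the upper beta genes.

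Of a list of 33 catenins, other junction proteins, regulators of cadherin genes and factors of protocadherin promoters, 27 were tested. CTNND1 passed as higher and none passed as lower. The median of the list was 0.07. CTNND1 encodes p120-catenin, which holds classical cadherins at the membrane, and had 453 and 446 CPM in RB1 KO and 353 and 347 CPM in wild-type (log2 fold change 0.36, adjusted p = 0.0608 by edgeR, and −0.12 with ERCC scaling). It did not pass without wild-type replicate 1 (adjusted p = 0.173) or without wild-type replicate 2 (adjusted p = 0.136). Beta-catenin (CTNNB1) and alpha-catenin (CTNNA1) each had a value of 0.08, and plakoglobin (JUP), a relative of beta-catenin, had 0.35 (adjusted p = 0.271). CTCF (−0.19) and the cohesin subunits SMC1A (−0.26), SMC3 (−0.20) and RAD21 (−0.06), which act with it at protocadherin promoters, did not pass. Neither did SMCHD1 (−0.08), a protein that represses clustered protocadherins in mice, whose libraries overlapped. In CTCF, SMC1A, SMC3 and RAD21 both RB1 KO libraries lay below both wild-type libraries, against 24% of all genes averaging at least 10 counts. Their unadjusted p by edgeR was 0.0343, 0.0102, 0.0182 and 0.432. At an unadjusted p below 0.05, 5 genes of the list were higher and 4 lower, against 8.16% and 7.16% of all genes tested. DNMT3B (0.18), the other promoter factor of the list, was positive, overlapped between genotypes and did not pass.

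Among 26 other genes of the cadherin superfamily and its desmosomal partners, 14 were tested and their median was 0.03. DSP, which encodes the desmosomal protein desmoplakin, rose, with 45.2 and 46.1 CPM in RB1 KO and 27.2 and 32.7 CPM in wild-type (log2 fold change 0.61, adjusted p = 0.036 by edgeR), but did not pass with ERCC scaling (0.11, adjusted p = 0.789). FAT3, a giant cadherin related to the fly gene fat, fell from 17.7 and 15.0 CPM in wild-type to 6.58 and 8.59 CPM in RB1 KO (−1.11, adjusted p = 0.024).

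Fibroblast markers were abundant in all libraries, and none of the 8 passed, with summed levels of 46839 and 41824 CPM in RB1 KO and 34190 and 36104 CPM in wild-type. The 8 epithelial markers summed to 31.8 and 40.1 CPM in RB1 KO and 53.7 and 41.5 CPM in wild-type, with CDH1 at 0. Of the 6 endothelial markers matched, KDR and TEK were higher in RB1 KO, while CDH5 and EMCN were at 0. The 6 summed to 186 and 159 CPM in RB1 KO against 122 and 124 CPM in wild-type. Nearly all of this sum was TEK, at 180 and 155 CPM in RB1 KO and 120 and 123 CPM in wild-type. Among markers of neural and glial cells MAP2 was higher, with a sum of 7.46 and 7.87 CPM in RB1 KO against 5.80 and 5.75 CPM in wild-type and with ELAVL4 and STMN2 at 0. Among those of muscle and pericytes RGS5 was higher and DES and MYH11 were lower, with sums of 585 and 689 CPM against 599 and 441 CPM and MYOG at 0. The part of these differences in the protocadherin values was not tested, and in bulk RNA fewer cells of a kind and less RNA per cell cannot be told apart.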

How the data were processed

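RNA-seq libraries of RB1 KO and wild-type IMR-90 cells (n = 2 each) were grouped by the genotype in their labels. The authors depleted ribosomal RNA, prepared strand-specific libraries, aligned reads to GRCh37 with STAR (2.7.2b in the submitters' processing notes) and deposited raw counts of uniquely mapped reads per GENCODE 19 gene. Which strand setting was kept is not given in the sources used here. Reads in exons that several genes share count for none of them, so PCDHA and PCDHG counts come from each gene's own exon. Names and coordinates came from GENCODE 44 mapped to GRCh37, which named 55538 of 57820 IDs. Neither the 92 ERCC and 7 SIRV lines nor the 4 summary lines entered library sizes or tests. The summary lines held, in RB1 KO and then wild-type libraries, 8.03, 8.36, 9.03 and 8.89% unmapped, 12.96, 13.1, 13.4 and 15.6% outside annotated exons and 2.10, 2.09, 2.17 and 2.06% ambiguous reads.

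Genotypes were compared with edgeR 4.0.16 in R 4.3.3 (quasi-likelihood test, TMM factors, filterByExpr with a minimum count of 10 and minimum total of 15) over the whole table, with Benjamini-Hochberg adjustment and calls at an adjusted p under 0.1, two-sided. CPM values use TMM factors. Standard errors were taken from the log2 fold change and its F statistic, and intervals are 1.96 of them to each side. The code was tested on simulated data. Alternatives were RLE, upper-quartile, library-total and ERCC factors, 2 other filters, limma 3.58.1 (voom), DESeq2 1.42.0, a block for the replicate number, a stricter adjusted p (under 0.05) and leaving out each library. A crossed block was added after seeing the data. Replicates differed by more than sampling noise (chi-square per degree of freedom 17.6 and 18.8). Tables and plots used Python 3.11.15, pandas 2.3.3 and matplotlib 3.10.9.

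Members and lists were chosen with earlier results of these data known. Genes named with values are the members called, the 3 most abundant and up to 2 uncalled members of at least 1 CPM with the largest change in each group, a fixed set of well-known members, called genes and 4 catenins of the other lists, and RB1. PCDHGA12, PCDHB3, PCDHB8, PCDHGA6, CDH4, CDH15, CDH18, CDH24, PCDH1, PCDH17, the genes around the clusters and the promoter factors were named after their values were seen.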

Additional observations from a re-analysis of the deposited data

How the results depend on the processing

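PCDH10 was called lower under every alternative, and the 13 PCDHB genes were positive in each fit that held them all, except under ERCC scaling, where 11 were; with at least 10 counts required in each library 12 were fitted and 12 were positive. Of 16426 genes, 476 were called; this was 179 with ERCC scaling, 226 with the replicate block, 2974 with the crossed replicate block, 222 at an adjusted p under 0.05, and from 255 (without wild-type replicate 1) to 1431 (without RB1 KO replicate 2) when a library was left out. The labels' replicate numbers pair no libraries by source, and the correlation of the deviations of same-numbered libraries was −0.20. The block of the labelled numbers left 2 of the 4 member calls (PCDHB13, PCDH10), the crossed pairing gave 21. The clustered protocadherins called (2) were 1 with no filter, upper-quartile factors, a minimum of 10 counts per library, the replicate block, limma-voom or DESeq2, 0 with ERCC factors or at an adjusted p under 0.05, 15 with the crossed replicate block, and 0 to 10 with a library left out. The other protocadherins called (2) were 1 with the replicate block or at an adjusted p under 0.05, and 1 to 3 with a library left out. Cadherin calls (0) were 1 with ERCC factors or limma-voom (CDH18 in both), 3 with the crossed replicate block and 0 to 2 with a library left out. Junction partners called (1) were 2 with library totals, 0 with ERCC factors, the replicate block or an adjusted p under 0.05, 9 with the crossed replicate block, and 0 to 4 with a library left out. The other superfamily genes called (2) were 1 with ERCC factors and 4 with the crossed replicate block. ERCC scaling moved the median of all genes from −0.01 to −0.49 and reversed 11 named genes, none of them called under it: CDH11 (−0.44), CDH13 (−0.11), PCDH18 (−0.073), PCDHA3 (−0.45), PCDHGA10 (−0.37), PCDHGA7 (−0.0026), CTNNA1 (−0.41), CTNNB1 (−0.40), CTNND1 (−0.12), JUP (−0.17) and RB1 (−0.36). The 2 wild-type libraries lay further apart on that scale, with 19.9 and 31.9 CPM of summed PCDHB. Library totals reversed CDH11 (−0.026) and PCDHA3 (−0.028). Leaving out a library reversed CDH11 (range −0.016 to 0.10), PCDH7 (−0.094 to 0.056) and PCDHA3 (−0.33 to 0.53). The cause of these changes was not tested.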
